A study of Homo sapiens with 18 samples.

Results

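SUDHL6 and SUDHL4 are established human diffuse large B cell lymphoma lines of the germinal centre type, and their untreated transcriptomes were compared here. The comparison uses 6 of the 18 RNA-seq libraries of the series: 3 of SUDHL6 and 3 of SUDHL4, all from cells kept for 12 h in DMSO, the vehicle of the series' BCL6 inhibitor. No library of inhibitor-treated cells entered, and the third line of the series, Farage, was used only in an alternative fit. The 6 libraries were chosen by their labels for line and treatment, not by any measured value. Levels are CPM, the read count of a gene scaled to the total of its library, and a gene was tested when 3 or more of the 6 libraries had 1 CPM or more, as 11578 of the 23250 listed gene symbols did. The labels do not say whether the 3 libraries of a line came from separate cultures, so p-values reflect the spread among these libraries alone, and that spread may be technical. Each line is the culture of a single tumour, so a difference between them describes these lines and no class of lymphoma.

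Germinal centre B cells divide quickly in the dark zone of the lymphoid follicle, where immunoglobulin genes are mutated, and are selected for antigen binding in the light zone. BCL6 is the repressor that sets up this state, through corepressors such as BCOR and together with the Polycomb complexes, of which EZH2 and CBX8 are subunits. Leaving the state goes with loss of BCL6 and gain of IRF4, PRDM1 and XBP1, the regulators of the plasma cell. Lymphomas of the germinal centre type keep much of this program, while the activated B cell type shows NF-kB activity and IRF4. Both lines are known to carry a translocation that joins BCL2 to the immunoglobulin heavy chain locus and a mutation in the catalytic domain of EZH2.

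The listed genes held 7359083 to 20599310 reads per SUDHL6 library and 22097349 to 25492726 reads per SUDHL4 library. The low end belongs to SUDHL6 replicate 3, in which 3 reads correspond to 0.321 CPM. This library also stood apart in content: 123 genes lay at least 2-fold above both other SUDHL6 libraries in it and 121 at least 2-fold below, on the log2(CPM + 1) scale. In SUDHL4 replicate 3, 34 genes lay at least 2-fold above both partners and 0 below; SLC7A11, DNAJB4 and other stress genes were among them. Of the remaining 4 libraries none had more than 4 such genes on either side. Across genes, r between libraries was 0.981 to 0.994 within SUDHL6, 0.994 to 0.998 within SUDHL4 and 0.837 to 0.845 between the lines. Where leaving out either of these libraries ended a named gene's call or moved its difference by over 1.5 times, the value without it, or the range of adjusted p over the fits that lost the call, is given.

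Both lines carried B cell transcripts at high levels, while most markers of other blood or tissue cells stayed under 1 CPM. MS4A1, which encodes the surface protein CD20, had 2701, 2429.9 and 2578 CPM in SUDHL6, against 3675, 3469 and 3462 CPM in SUDHL4. CD79A and CD79B, the signalling chains of the B cell receptor, averaged 1132 and 824 CPM in SUDHL6 and 685 and 571 CPM in SUDHL4. Of 22 T and NK cell markers 20 stayed under 1 CPM in all 6 libraries, of 19 myeloid markers 16, of 17 epithelial and stromal markers 13 and of 14 erythroid and megakaryocyte markers 14. The summed CPM of the T and NK cell markers was 2.23 to 4.28 in SUDHL6 and 14.4 to 16.6 in SUDHL4, where CD247 and CD3E accounted for most of it; CD3D was at 0 in all SUDHL6 libraries and in 2 of the 3 SUDHL4 libraries. For the myeloid markers the sum was 59.7 to 83.0 in SUDHL6 and 71.4 to 84.4 in SUDHL4. Members other than CD14 carried this sum, as CD14 had no more than 0.415 CPM. Only 2 of the myeloid markers were tested, and neither was called. The epithelial and stromal markers summed to 1.82 to 3.005 in SUDHL6 and 64.3 to 71.5 in SUDHL4. DCN, the proteoglycan decorin, made up most of that sum in SUDHL4, with 0, 0 and 0 CPM in SUDHL6, against 66.6, 61.2 and 59.0 CPM in SUDHL4, while COL1A1 and EPCAM stayed at or under 0.0770 CPM in all 6 libraries.

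Of the 11578 genes tested, 8291 (71.6%) differed between the lines at an adjusted p of at most 0.05 (limma on log2(CPM + 1), Benjamini-Hochberg): 4684 (40.5%) were higher in SUDHL6 and 3607 (31.2%) lower. With so many calls a second rule, a call with a log2 difference of at least 1, is used below: 1585 genes (13.7%) were at least 2-fold higher in SUDHL6 and 1536 (13.3%) at least 2-fold lower. The 3 libraries of a line lay entirely on 1 side of the other line's for 8790 genes (75.9%), and for 3118 of the 3121 genes called at least 2-fold. All differences are given as log2, SUDHL6 minus SUDHL4, with the SE of the fit, and levels as mean CPM ± SD of n = 3 libraries per line. The median difference of all genes was 0.11. Scaling the libraries by the median of ratios moved it by -0.11, to -0.01, and the share of calls that were higher from 56.5% to 49.5%; small differences of a single gene or list are to be read against that shift. CPM are not divided by transcript length, so tests and differences compare lines within a gene. Sums over markers and ranks by mean CPM across genes also carry transcript length.

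**Figure D1:**
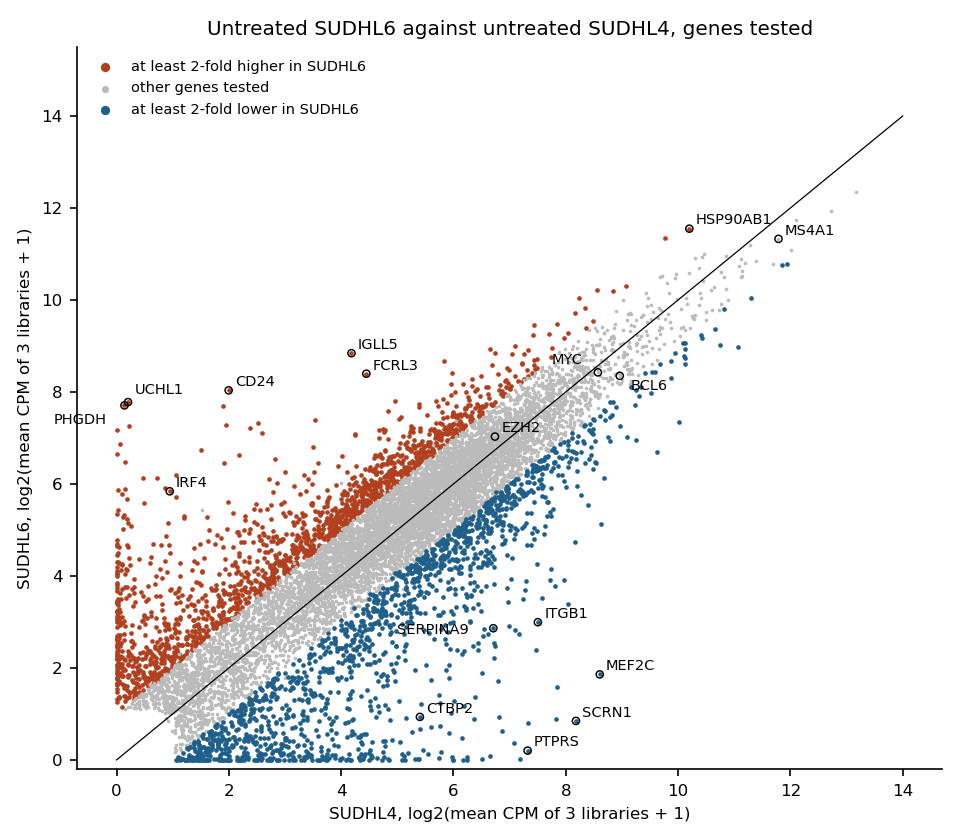
Mean expression of the genes tested in SUDHL6 (vertical axis) and SUDHL4 (horizontal axis), both as log2(mean CPM of 3 libraries + 1), with 1 point per gene; coloured points are called and at least 2-fold apart, and the line marks equal values. UCHL1, PHGDH and IRF4 lie far above the line and SCRN1, PTPRS and MEF2C far below it, while EZH2 and MYC lie close to it.

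The differences of greatest size were between a substantial level in 1 line and next to none in the other. UCHL1, a deubiquitinating enzyme first known from neurons, had 234, 222 and 199 CPM in SUDHL6, against 0.292, 0.0950 and 0.0670 CPM in SUDHL4. PHGDH, which catalyses the entry step of serine synthesis, had 172, 249.9 and 202 CPM in SUDHL6, against 0.109, 0.0950 and 0.1005 CPM in SUDHL4. Both were present in every SUDHL6 library and near 0 in every SUDHL4 library, with log2 differences of 7.58 (SE 0.121, adjusted p = 6.2e-09) and 7.55 (SE 0.143, adjusted p = 8.01e-09). VIM, the intermediate filament vimentin, averaged 151 ± 50.04 CPM in SUDHL6 and 0.171 ± 0.0462 CPM in SUDHL4 (log2 difference 6.97, adjusted p = 7.32e-08). CD24, a surface sialoglycoprotein of B cells, had 322, 312 and 151 CPM in SUDHL6, against 3.14, 2.98 and 2.85 CPM in SUDHL4. Its SUDHL6 libraries all lay far above those of SUDHL4, with replicate 3 the lowest of the 3 (log2 difference 5.96, adjusted p = 4.59e-07). The neuronal homeobox gene CUX2 had 152, 203 and 263 CPM in SUDHL6, against 2.88, 3.36 and 1.98 CPM in SUDHL4, again without overlap (log2 difference 5.77, adjusted p = 1.61e-07).

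TUBB2B, a beta tubulin, and PRTG, an immunoglobulin superfamily receptor of the embryo, had no read in any SUDHL4 library. Against the limit that 3 reads over the 3 SUDHL4 libraries allow, their means of 143 and 99.6 CPM in SUDHL6 were at least 4232-fold and at least 2949-fold higher. TUBB2B has a near-identical neighbour, TUBB2A, so its count depends on how shared reads were assigned. APOD, a lipid carrier, had 179.8, 135 and 32.2 CPM in SUDHL6, against 0.0365, 0.0317 and 0.0670 CPM in SUDHL4. The third SUDHL6 library was well below the other two, and without it the log2 difference was 7.23 in place of 6.48. TFCP2, NOTUM, ARPP21, CCDC110 and the interferon-inducible MX2 completed the genes of greatest positive difference outside the HLA region, with means of 53.9, 50.1, 69.1, 57.7 and 69.2 CPM in SUDHL6 and of 0.0745, 0.134, 0.393, 0.0233 and 0.643 CPM in SUDHL4.

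In the other direction SCRN1 (secernin) had 0.578, 0.642 and 1.18 CPM in SUDHL6, against 277, 289 and 301 CPM in SUDHL4. PTPRS, a receptor tyrosine phosphatase, had 0.154, 0.189 and 0.107 CPM in SUDHL6, against 161, 164 and 152 CPM in SUDHL4. These genes were read at well over 100 CPM in every SUDHL4 library and at about 1 CPM or less in SUDHL6 (log2 differences -7.35 and -7.12, adjusted p = 7.96e-09 and 4.32e-09). MEF2C, a transcription factor that B cells need for germinal centre formation, had 2.73, 2.68 and 2.46 CPM in SUDHL6, against 395, 388 and 382 CPM in SUDHL4. It was thus low but present in SUDHL6, at a log2 difference of -6.75 (SE 0.0792, adjusted p = 1.74e-09). CSF2RB, the shared beta chain of the GM-CSF, IL-3 and IL-5 receptors, averaged 0.731 ± 0.382 CPM in SUDHL6 and 159 ± 10.1 CPM in SUDHL4 (log2 difference -6.56, adjusted p = 3.16e-08). SPN, the leukocyte sialoglycoprotein CD43, averaged 0.906 ± 0.989 CPM in SUDHL6 and 111 ± 10.5 CPM in SUDHL4 (log2 difference -5.99, adjusted p = 9.99e-07). DST, ARHGEF6, RAPGEF5, CSRNP3, PSMA8 and the antisense transcript AFAP1-AS1 were also among the 15 greatest negative differences, between -6.98 and -6.16. The counting's strand setting is not given, so reads of AFAP1-AS1 cannot be told from those of its sense partner.

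THY1, the surface antigen CD90, was at 0 in all SUDHL6 libraries and averaged 74.2 ± 4.32 CPM in SUDHL4. GTSF1, which acts with PIWI proteins in germ cells, was likewise at 0 in SUDHL6 and averaged 71.2 ± 1.90 CPM in SUDHL4. EYA2, a developmental coactivator, averaged 62.9 ± 6.47 CPM there. Against 3 reads over the 3 SUDHL6 libraries, THY1, GTSF1 and EYA2 were at least 1527-fold, 1465-fold and 1295-fold lower in SUDHL6. GYPC (glycophorin C) and CCDC85A each had 1 read over the 3 SUDHL6 libraries, against means of 90.4 and 145 CPM in SUDHL4.

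Counted by presence alone, 89 genes had at least 5 CPM in all 3 SUDHL6 libraries and under 0.5 CPM in all 3 SUDHL4 libraries, and 123 genes the reverse.

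The promoters of genes that are on in 1 line and silent in the other are shown for the 2 of highest mean CPM in each set that had an entry in RefSeq's table (GRCh38.p14). Each line below gives the 250 bases before the annotated start, 5′ to 3′ on the gene's strand, with every CG dinucleotide in capitals. UCHL1 (chr4:41256678-41256927, plus strand) and PHGDH (chr1:119711684-119711933, plus strand) were the genes read in SUDHL6; PTPRS (chr19:5340813-5341062, minus strand) and CCDC85A (chr2:56183740-56183989, plus strand) those read in SUDHL4.
UCHL1: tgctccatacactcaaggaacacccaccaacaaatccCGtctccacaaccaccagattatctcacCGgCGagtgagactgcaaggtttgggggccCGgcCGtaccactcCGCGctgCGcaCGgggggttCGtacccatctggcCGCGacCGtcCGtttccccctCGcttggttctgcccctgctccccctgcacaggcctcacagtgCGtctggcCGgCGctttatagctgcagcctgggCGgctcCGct
PHGDH: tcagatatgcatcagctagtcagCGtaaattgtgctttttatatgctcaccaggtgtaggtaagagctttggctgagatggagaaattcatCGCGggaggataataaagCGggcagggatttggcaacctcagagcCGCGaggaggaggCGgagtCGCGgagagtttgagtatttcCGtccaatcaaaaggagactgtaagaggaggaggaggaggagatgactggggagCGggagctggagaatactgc
PTPRS: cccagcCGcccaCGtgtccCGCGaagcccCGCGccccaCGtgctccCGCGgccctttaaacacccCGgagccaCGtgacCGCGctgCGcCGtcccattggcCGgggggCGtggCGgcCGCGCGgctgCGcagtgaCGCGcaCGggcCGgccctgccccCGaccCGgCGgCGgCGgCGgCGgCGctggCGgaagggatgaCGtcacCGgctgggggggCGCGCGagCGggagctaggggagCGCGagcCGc
CCDC85A: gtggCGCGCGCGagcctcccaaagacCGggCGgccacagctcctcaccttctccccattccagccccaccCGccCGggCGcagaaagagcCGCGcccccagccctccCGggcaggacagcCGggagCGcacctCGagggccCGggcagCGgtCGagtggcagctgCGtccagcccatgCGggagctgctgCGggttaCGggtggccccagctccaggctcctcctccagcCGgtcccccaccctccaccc
The CG dinucleotide, which reads the same on both strands and is the site of DNA methylation in human cells, occurred 20 times in the UCHL1 window, 11 times in that of PHGDH, 44 times in that of PTPRS and 23 times in that of CCDC85A. Over all 27305 windows of the table, 93.6% held at least 1 CG and the median was 11. The 9080 windows of genes tested here had a median of 21. These letters describe the reference sequence and say nothing of the methylation in either line. Windows were found for only 62 of the 89 genes and 83 of the 123, so no comparison of the sets is given.

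Of 17 B cell identity genes 1 (5.88%) was at least 2-fold higher in SUDHL6 and 2 (11.8%) at least 2-fold lower, against 13.7% and 13.3% of all genes, with a median of 0.03 that turns to -0.09 under median-of-ratios scaling. PAX5, the factor that fixes B cell fate, did not pass the test (log2 difference 0.03, adjusted p = 0.84). MS4A1 was lower (-0.46, adjusted p = 0.00472), and CD79A and CD79B were higher in SUDHL6 (0.72 and 0.53, adjusted p = 0.000139 and 0.00145). EBF1, which works with PAX5 early in the lineage, averaged 18.4 ± 0.497 CPM in SUDHL6 and 80.6 ± 2.55 CPM in SUDHL4. CD22, an inhibitory lectin of the receptor, averaged 601 ± 106 CPM in SUDHL6 and 1349.9 ± 40.4 CPM in SUDHL4. Both were lower in SUDHL6 in every library (log2 differences -2.08 and -1.18, adjusted p = 1.83e-07 and 6.05e-05).

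Of the 25 germinal centre genes, 10 (40.0%) were at least 2-fold lower in SUDHL6 and 0 at least 2-fold higher, against 13.3% and 13.7% of all genes, and the median difference was -0.83. BCL6 had 305, 409 and 262 CPM in SUDHL6, against 504, 526 and 461 CPM in SUDHL4. Every SUDHL6 library was below every SUDHL4 library, at a log2 difference of -0.63 (SE 0.153, adjusted p = 0.00562). SERPINA9, a protease inhibitor restricted to the germinal centre, had 5.20, 6.12 and 7.50 CPM in SUDHL6, against 105, 106 and 99.8 CPM in SUDHL4 (log2 difference -3.86, adjusted p = 9.47e-08). NEIL1, a DNA glycosylase, averaged 12.3 ± 3.72 CPM in SUDHL6 and 60.1 ± 4.50 CPM in SUDHL4, and the adaptor STAP1 55.4 ± 0.956 CPM in SUDHL6 and 149.9 ± 8.88 CPM in SUDHL4. ASB13, part of a ubiquitin ligase, averaged 43.1 ± 8.56 CPM in SUDHL6 and 121 ± 13.3 CPM in SUDHL4. All 3 were lower in SUDHL6 beyond the spread of the libraries (log2 differences -2.24, -1.42 and -1.49, adjusted p at most 3.25e-05).

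MME (CD10), the receptor S1PR2 and the MYB relative MYBL1 were lower by smaller amounts (-0.78, -0.75 and -0.70, adjusted p = 0.00873, 0.00113 and 0.0081). For LMO2, a transcriptional bridging protein, the libraries had 33.8, 42.5 and 91.1 CPM in SUDHL6, against 112, 116 and 93.5 CPM in SUDHL4, so that SUDHL6 replicate 3 came close to the lowest SUDHL4 library (log2 difference -1.05, adjusted p = 0.0153). That call was lost without SUDHL6 replicate 2 or without SUDHL4 replicate 2 (adjusted p = 0.0567 and 0.0525). GCET2, a regulator of receptor signalling and motility also called GCSAM, went the other way, with 109.9 ± 16.1 CPM in SUDHL6 and 68.04 ± 3.48 CPM in SUDHL4 (log2 difference 0.67, adjusted p = 0.000672).

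By the 2-fold rule 5 of 11 tested dark zone genes (45.5%) were higher in SUDHL6 and 1 lower, with a median of 0.67. The shares of all genes were 13.7% and 13.3%. CCND3, the cyclin of dividing dark zone cells, had 199, 246.8 and 170.0 CPM in SUDHL6, against 53.4, 56.9 and 46.2 CPM in SUDHL4. MKI67, a marker of cycling cells, had 754, 851 and 907 CPM in SUDHL6, against 275, 309 and 274.2 CPM in SUDHL4. POLH, the DNA polymerase that makes mutations at A and T bases during antibody maturation, averaged 183.5 ± 0.895 CPM in SUDHL6 and 62.6 ± 3.16 CPM in SUDHL4, and CXCR4, the receptor that holds cells in the dark zone, 177 ± 47.5 CPM in SUDHL6 and 64.1 ± 7.68 CPM in SUDHL4. None of these 4 overlapped between the lines, as for 75.9% of all genes. Their log2 differences were 1.94, 1.54, 1.54 and 1.42 (adjusted p at most 0.000266), and CCND3 and POLH lie on chromosome 6. In bulk libraries a larger share of dividing cells and more RNA per dividing cell cannot be told apart. Of 17 light zone and CD40-induced genes 2 were at least 2-fold higher and 3 at least 2-fold lower, shares (11.8% and 17.6%) close to those of all genes; 5 were lower by edgeR, by DESeq2 or with a pseudocount of 0.25.

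**Figure D2:**
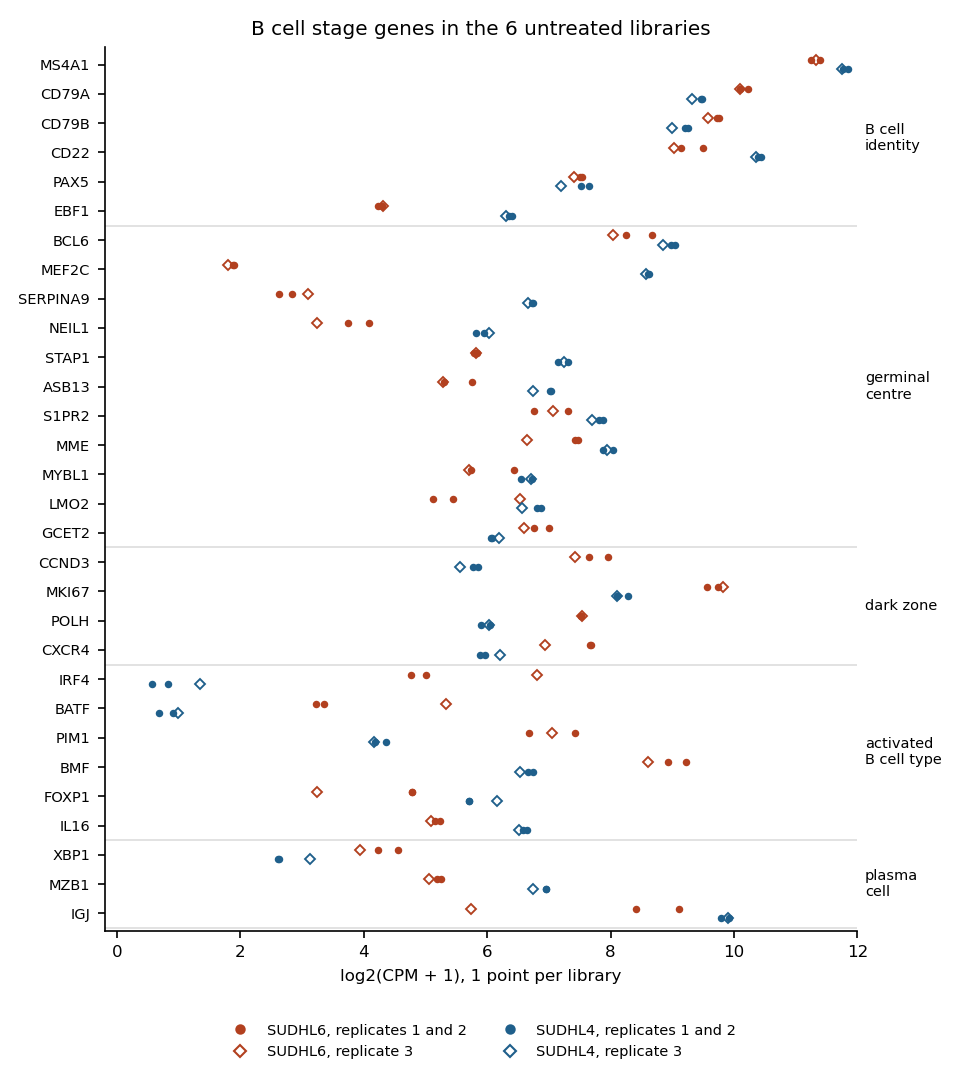
Expression of B cell stage genes in each untreated library as log2(CPM + 1) (horizontal axis), with genes down the page grouped by list, SUDHL6 in red above SUDHL4 in blue, and replicate 3 of each line as an open diamond. MEF2C, SERPINA9 and NEIL1 lie to the left in SUDHL6 and IRF4, BATF and PIM1 to the right, and for IRF4, BATF and IGJ the diamond of SUDHL6 lies away from its partners.

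SUDHL6 was higher for several genes that mark the activated B cell type of lymphoma, and lower for as many others. Of 22 tested members 6 (27.3%) were at least 2-fold higher and 6 at least 2-fold lower, with a median of -0.17. The shares of all genes were 13.7% and 13.3%. The count of lower members was 3 when genes were kept only at a mean of at least 5 CPM. IRF4, a regulator of both the activated and the plasma cell state, had 26.1, 31.2 and 111 CPM in SUDHL6, against 0.766, 0.475 and 1.54 CPM in SUDHL4. BATF, an AP-1 factor that partners IRF4, had 8.40, 9.21 and 39.4 CPM in SUDHL6, against 0.876, 0.602 and 0.971 CPM in SUDHL4. In both genes SUDHL6 replicate 3 was the highest library by far, but replicates 1 and 2 also stood above all of SUDHL4. The log2 differences were 4.62 and 3.12 (adjusted p = 5.86e-05 and 0.000572), and 3.97 and 2.44 without replicate 3 (adjusted p = 5.88e-08 and 7.7e-08).

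TNFRSF13B, the receptor TACI for B cell survival ligands, had 22.6, 31.4 and 64.9 CPM in SUDHL6, against 0, 0 and 0.0335 CPM in SUDHL4, with a single read over the 3 SUDHL4 libraries (adjusted p = 3.04e-06). PIM1, a survival kinase, averaged 134 ± 34.4 CPM in SUDHL6 and 17.9 ± 1.45 CPM in SUDHL4 (log2 difference 2.81, adjusted p = 2.62e-06). BMF, a cell death protein that binds BCL2, averaged 492 ± 104 CPM in SUDHL6 and 99.1 ± 7.06 CPM in SUDHL4 (log2 difference 2.28, adjusted p = 3.41e-06). The transcription factor FOXP1 averaged 20.5 ± 10.4 CPM in SUDHL6 and 57.7 ± 11.2 CPM in SUDHL4 (log2 difference -1.59, adjusted p = 0.00561; -0.93 without both libraries of replicate 3). The cytokine IL16 and the transcription factor TCF4 were lower too (-1.42 and -2.45, adjusted p = 1.64e-06 and 3.24e-06).

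The plasma cell genes did not move as a group: 3 of 13 were at least 2-fold higher and 2 at least 2-fold lower. By the same rule 13.7% of all genes were higher and 13.3% lower. The median of 0.06 turns to -0.03 under median-of-ratios scaling. PRDM1, the master repressor of the plasma cell, had at most 0.1005 CPM in any library and SDC1 (CD138) at most 0.964. XBP1, which builds the secretory apparatus, averaged 18.2 ± 4.11 CPM in SUDHL6 and 5.99 ± 1.49 CPM in SUDHL4 (log2 difference 1.46, adjusted p = 0.000237). MZB1, a chaperone of antibody assembly, averaged 34.96 ± 2.46 CPM in SUDHL6 and 117 ± 9.63 CPM in SUDHL4 (log2 difference -1.72, adjusted p = 1.34e-06). IGJ, the joining chain of secreted IgM and IgA, had 554, 341 and 52.5 CPM in SUDHL6, against 970.1, 886 and 959 CPM in SUDHL4. It was lower in SUDHL6, at a log2 difference of -2.12 (adjusted p = 0.0284) with all libraries, of -1.11 without SUDHL6 replicate 3 (adjusted p = 0.000136) and of -2.80 without SUDHL6 replicate 1. The call was lost when any SUDHL4 library was left out (adjusted p = 0.0663 to 0.0877), with no filter (adjusted p = 0.0531) and with DESeq2 (adjusted p = 0.0542). IGLL5, a gene that overlaps the immunoglobulin lambda constant region, had 500.3, 493 and 380.3 CPM in SUDHL6, against 17.8, 19.2 and 14.5 CPM in SUDHL4. The 3 SUDHL6 libraries lay far above those of SUDHL4 (log2 difference 4.66, adjusted p = 6e-08), and reads of the lambda chain and of IGLL5 cannot be told apart.

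Of 37 genes of B cell receptor signalling 4 (10.8%) were at least 2-fold higher in SUDHL6 and 11 (29.7%) at least 2-fold lower, against 13.7% and 13.3% of all genes, with a median of -0.37. The higher members were led by Fc receptor-like proteins, inhibitory or modulating receptors encoded in a cluster on chromosome 1. FCRL3 had 309, 419 and 279 CPM in SUDHL6, against 21.3, 20.7 and 20.4 CPM in SUDHL4. FCRL2 averaged 192 ± 43.3 CPM in SUDHL6 and 27.4 ± 1.89 CPM in SUDHL4, and FCRL5 67.6 ± 22.2 CPM in SUDHL6 and 5.58 ± 0.348 CPM in SUDHL4. SUDHL6 exceeded SUDHL4 in all libraries for each of them (log2 differences 3.93, 2.75 and 3.33, adjusted p = 1.4e-07, 2.16e-06 and 4.05e-06). The adaptor BLNK, which links SYK to downstream enzymes, was higher by 1.06 (adjusted p = 3.03e-05).

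Lower members of the list included both inhibitors and activators of the signal. PTPN6, the phosphatase SHP-1 that such receptors recruit, had 44.7, 32.1 and 58.9 CPM in SUDHL6, against 356, 362 and 291 CPM in SUDHL4. SIGLEC10 and LAIR1, receptors that signal through it, averaged 1.45 ± 0.140 CPM in SUDHL6 and 63.7 ± 6.35 CPM in SUDHL4 for SIGLEC10 and 0.109 ± 0.0926 CPM in SUDHL6 and 6.49 ± 0.345 CPM in SUDHL4 for LAIR1. CR2, the complement receptor CD21 that amplifies receptor signals, averaged 0.262 ± 0.0470 CPM in SUDHL6 and 6.57 ± 0.434 CPM in SUDHL4. RASGRP1, an exchange factor that turns on RAS, averaged 5.71 ± 1.85 CPM in SUDHL6 and 142 ± 3.50 CPM in SUDHL4. The log2 differences of these 5 genes ran from -4.72 for SIGLEC10 to -2.58 for CR2, each with an adjusted p of at most 4.83e-06. In the PI3K, AKT and mTOR list, 3 of 20 members were at least 2-fold higher and 4 at least 2-fold lower. For all genes the shares were 13.7% and 13.3%. DEPTOR, an inhibitor of mTOR, averaged 214 ± 38.4 CPM in SUDHL6 and 40.7 ± 2.70 CPM in SUDHL4 (log2 difference 2.35, adjusted p = 1.77e-06), and PIK3CA, a catalytic subunit of PI3K, 16.05 ± 2.40 CPM in SUDHL6 and 52.1 ± 12.1 CPM in SUDHL4 (log2 difference -1.63, adjusted p = 5.82e-05).

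Of 24 tested NF-kB genes 13 were higher in SUDHL6 and 5 lower, where 40.5% and 31.2% of all genes were called higher and lower. By the 2-fold rule 7 (29.2%) were higher and 4 (16.7%) lower, against 13.7% and 13.3% of all genes, with a median of 0.75. NFKBIZ, an atypical nuclear IkB protein, had 50.1, 74.1 and 52.05 CPM in SUDHL6, against 0.693, 0.538 and 1.21 CPM in SUDHL4. The lines were far apart, at a log2 difference of 5.04 (SE 0.193, adjusted p = 2.05e-07). BIRC3, a ubiquitin ligase induced by NF-kB, averaged 151 ± 29.2 CPM in SUDHL6 and 36.9 ± 2.55 CPM in SUDHL4. NFKB2, the precursor of the alternative pathway, averaged 97.2 ± 21.8 CPM in SUDHL6 and 29.1 ± 1.45 CPM in SUDHL4. BCL3 and TNFAIP3, a coactivator and a feedback inhibitor, averaged 33.8 and 8.43 CPM in SUDHL6 and 9.14 and 1.90 CPM in SUDHL4. Log2 differences of these 4 were 1.99, 1.68, 1.77 and 1.69, each at an adjusted p of at most 2.34e-05. TRAF3 and CYLD, inhibitors of the pathway, were lower in SUDHL6 (log2 differences -1.79 and -1.23, adjusted p = 4.39e-06 and 0.000239). NFKB1, the precursor of the classical pathway, and TRAF1 were lower as well (-1.29 and -2.36, adjusted p = 3.86e-05 and 5.88e-06).

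Among 21 tested cytokine receptors and JAK-STAT genes 5 were higher in SUDHL6, 8 lower and 8 not called, with a median of -0.09. By the 2-fold rule 7 (33.3%) were lower and 1 higher, against 13.3% and 13.7% of all genes. The pair of STAT5 genes, which transmit signals of many cytokine receptors, was lower in all libraries. STAT5A had 1.27, 1.51 and 0.643 CPM in SUDHL6, against 26.9, 28.3 and 27.5 CPM in SUDHL4. STAT5B had 44.6, 43.1 and 41.8 CPM in SUDHL6, against 218, 223 and 212 CPM in SUDHL4. Their log2 differences were -3.76 and -2.31 (adjusted p = 4.5e-07 and 6.1e-08). IL21R, the receptor of a follicular helper T cell cytokine, averaged 19.1 ± 1.65 CPM in SUDHL6 and 98.0 ± 2.78 CPM in SUDHL4, and SOCS1, a feedback inhibitor, 2.30 ± 1.35 CPM in SUDHL6 and 9.47 ± 1.38 CPM in SUDHL4 (log2 differences -2.30 and -1.76, adjusted p = 2.1e-07 and 0.00111). IL10RA, a chain of the IL-10 receptor, was the 1 member at least 2-fold higher. It averaged 61.3 ± 17.6 CPM in SUDHL6 and 20.1 ± 2.82 CPM in SUDHL4 (log2 difference 1.52, adjusted p = 0.000282).

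Of 15 tested genes of G protein signalling 2 were higher in SUDHL6 and 11 lower, against 40.5% and 31.2% of all genes. Their median was -1.01. By the 2-fold rule 8 (53.3%) were lower and 0 higher, against 13.3% and 13.7% of all genes. RGS proteins shorten the signals of chemokine receptors. RGS13, found in germinal centre B cells, had 246.6, 219 and 188 CPM in SUDHL6, against 475, 399 and 446 CPM in SUDHL4. RGS10 and RGS16 averaged 19.6 and 15.7 CPM in SUDHL6 and 105 and 68.98 CPM in SUDHL4. None of the 3 overlapped between lines, as for 75.9% of all genes. Their log2 differences were -1.015, -2.44 and -2.12 (adjusted p at most 8.04e-05). GNG7, a G protein gamma subunit, had 34.7, 34.1 and 4.39 CPM in SUDHL6, against 167, 164 and 162 CPM in SUDHL4. Its log2 difference was -3.13 (adjusted p = 0.00236) and -2.23 without SUDHL6 replicate 3, the library in which it was lowest.

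The integrins divided. ITGB1, the beta1 chain that pairs with many alpha chains to bind matrix, had 8.28, 5.32 and 7.28 CPM in SUDHL6, against 182, 168 and 191 CPM in SUDHL4. ITGB2, the beta2 chain of leukocyte integrins, had 3.47, 4.53 and 23.7 CPM in SUDHL6, against 197, 204 and 169 CPM in SUDHL4. SUDHL6 lay below SUDHL4 for both, including replicate 3, which was the highest SUDHL6 library for ITGB2 (log2 differences -4.53 and -4.49, adjusted p = 8.3e-08 and 0.000135; -5.26 for ITGB2 without replicate 3). ITGAL, the alpha chain that pairs with beta2 to form LFA-1, was higher in SUDHL6 instead, with 419 ± 60.6 CPM in SUDHL6 and 178 ± 12.2 CPM in SUDHL4 (log2 difference 1.22, adjusted p = 2.94e-05). ARHGEF1, a guanine nucleotide exchange factor downstream of S1PR2, averaged 282 ± 27.4 CPM in SUDHL6 and 113 ± 11.2 CPM in SUDHL4 (log2 difference 1.31, adjusted p = 9.99e-06). In the migration and adhesion list as a whole 3 of 24 were at least 2-fold higher and 5 at least 2-fold lower. Among all genes the shares were 13.7% and 13.3%. Of the 5 lower genes 2 were counted at a mean of at least 5 CPM.

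**Figure D3:**
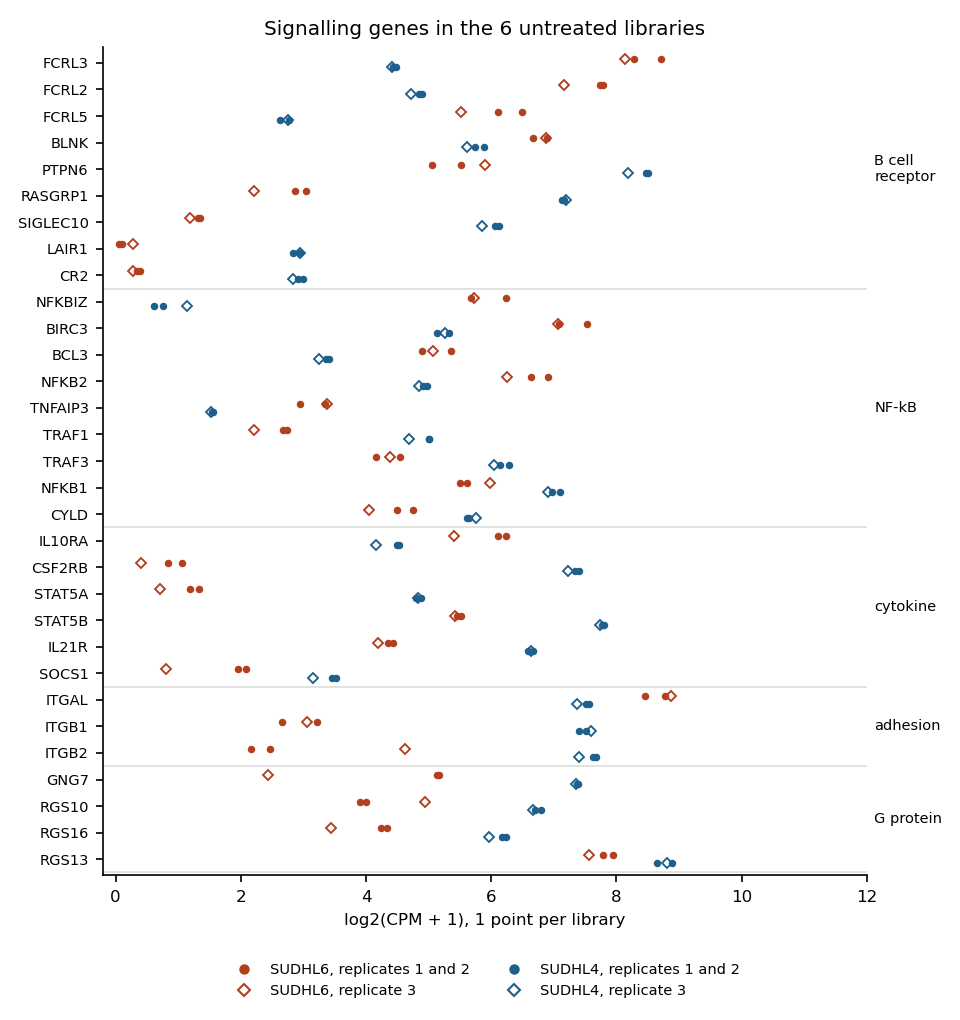
Expression of receptor, NF-kB, cytokine, adhesion and G protein genes in each untreated library as log2(CPM + 1) (horizontal axis), with genes down the page, SUDHL6 in red above SUDHL4 in blue, and replicate 3 of each line as an open diamond. FCRL3, NFKBIZ and BIRC3 lie to the right in SUDHL6, and STAT5A, ITGB1 and SIGLEC10 to the left.

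Genes of a list of costimulatory and TNF family surface proteins differed gene by gene. CD80, a ligand of CD28, had 32.6, 31.3 and 28.5 CPM in SUDHL6, against 2.04, 2.03 and 2.34 CPM in SUDHL4 (log2 difference 3.34, adjusted p = 1.11e-07). CD70, the ligand of CD27, had 15.49, 13.9 and 35.9 CPM in SUDHL6, against 7.81, 9.12 and 6.498 CPM in SUDHL4, with SUDHL6 replicate 3 highest. Its log2 difference was 1.25 (adjusted p = 0.00716), and 0.84 without that library (adjusted p = 0.000293), short of the 2-fold rule. TNFRSF14 (HVEM), a receptor often mutated or lost in follicular lymphoma, averaged 0.278 ± 0.178 CPM in SUDHL6 and 6.73 ± 0.258 CPM in SUDHL4 (log2 difference -2.61, adjusted p = 9.93e-07). TNFRSF10B, the TRAIL receptor DR5, averaged 21.1 ± 5.11 CPM in SUDHL6 and 82.5 ± 13.3 CPM in SUDHL4 (log2 difference -1.93, adjusted p = 3.15e-05). Over the list, 6 of 24 were at least 2-fold higher and 4 at least 2-fold lower, against 13.7% and 13.3% of all genes. The lower count was 2 at a mean of at least 5 CPM.

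Interferon-stimulated genes were mixed, and 19 of the 45 stayed under 1 CPM in all libraries. Of the 26 tested, 10 (38.5%) were at least 2-fold lower in SUDHL6 and 5 (19.2%) at least 2-fold higher. The higher count was 3 at a mean of at least 5 CPM. All genes had shares of 13.3% lower and 13.7% higher by this rule. ISG15, a ubiquitin-like modifier, had 1.35, 1.93 and 3.53 CPM in SUDHL6, against 28.02, 24.7 and 19.6 CPM in SUDHL4. IFITM2, a membrane protein that blocks virus entry, averaged 7.02 ± 0.331 CPM in SUDHL6 and 77.8 ± 6.05 CPM in SUDHL4. DTX3L and PARP9, which are encoded head to head and act as a complex, averaged 0.301 and 0.0868 CPM in SUDHL6 and 22.3 and 16.5 CPM in SUDHL4. Each of these 4 was lower in all SUDHL6 libraries (log2 differences -2.98, -3.29, -4.17 and -4.01, adjusted p at most 1.27e-05). MX2 and the interferon regulator IRF7 were higher (5.41 and 2.005, adjusted p = 2.6e-08 and 6.59e-06). OAS3, a sensor of double-stranded RNA, had 12.9, 17.4 and 2.14 CPM in SUDHL6, against 0.766, 0.538 and 0.837 CPM in SUDHL4, with a log2 difference of 2.44 that was 3.23 without SUDHL6 replicate 3 (adjusted p = 0.00466 and 2.7e-08).

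Antigen presentation genes went both ways. Of 18 class II genes, CIITA and its partners included, 4 were higher in SUDHL6 and 8 lower, 2 and 4 of them at least 2-fold. Of 18 class I and peptide loading genes 7 were higher and 8 lower, 2 and 3 of them at least 2-fold. The class I count of 2 was 1 at a mean of at least 5 CPM. Among all genes 40.5% were higher and 31.2% lower, 13.7% and 13.3% at least 2-fold. HLA-DRA had 1102, 899.8 and 1175 CPM in SUDHL6, against 2546, 2473 and 2517 CPM in SUDHL4. CD74, the invariant chain, had 1930.3, 2326 and 2309 CPM in SUDHL6, against 4111, 4224 and 4111 CPM in SUDHL4. CIITA, the activator of the class II genes, averaged 47.99 ± 4.84 CPM in SUDHL6 and 97.5 ± 13.4 CPM in SUDHL4. All 3 were lower in every SUDHL6 library (log2 differences -1.25, -0.93 and -1.003, adjusted p = 2.99e-05, 0.000167 and 0.00012), as was HLA-DPB1 (-1.56, adjusted p = 5.96e-07). HLA-DQA2, HLA-DQB2 and the pseudogene HLA-DRB6 were higher, with 87.4, 11.5 and 58.1 CPM in SUDHL6 and 0.113, 0.358 and 0.114 CPM in SUDHL4. These genes resemble their neighbours closely and vary between haplotypes, so their counts are uncertain. In class I, HLA-C averaged 147 ± 26.2 CPM in SUDHL6 and 37.7 ± 1.07 CPM in SUDHL4, while NLRC5, the activator of class I genes, averaged 0.214 ± 0.0923 CPM in SUDHL6 and 11.5 ± 1.22 CPM in SUDHL4 (log2 differences 1.92 and -3.36, adjusted p = 3.71e-06 and 1.96e-07). PSMB9, an immunoproteasome subunit, was lower as well (-1.65, adjusted p = 6.84e-05).

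Many genes of cell division were higher in SUDHL6. Of 22 mitosis genes 19 were higher and 1 lower, against 40.5% and 31.2% of all genes, and 10 (45.5%) at least 2-fold higher and 0 at least 2-fold lower, with a median of 0.95. PLK1, a mitotic kinase, had 122, 140.0 and 141 CPM in SUDHL6, against 53.1, 55.4 and 43.5 CPM in SUDHL4. CDC20, which activates the anaphase-promoting complex, and BUB1B, a checkpoint kinase, averaged 110.4 and 239.6 CPM in SUDHL6 and 38.7 and 88.1 CPM in SUDHL4. The lines did not overlap in any of the 3, as for 75.9% of all genes. Their log2 differences were 1.40, 1.48 and 1.43 (adjusted p at most 1e-05). Of 25 DNA replication genes 16 were higher and 0 lower, with a median of 0.52. By the 2-fold rule 8 (32.0%) were higher, a count of 5 without both libraries of replicate 3. Of all genes 13.7% were at least 2-fold higher and 13.3% at least 2-fold lower. CDT1, which loads the replicative helicase, had 49.3, 85.7 and 96.3 CPM in SUDHL6, against 23.97, 25.2 and 18.9 CPM in SUDHL4. MCM3, a helicase subunit encoded on chromosome 6, averaged 713 ± 98.1 CPM in SUDHL6 and 230.0 ± 22.4 CPM in SUDHL4. Both were higher in SUDHL6 (log2 differences 1.68 and 1.62, adjusted p = 0.00028 and 8.19e-06), as were LIG1 and RRM1 (1.48 and 1.39, adjusted p = 2.92e-05 and 7.61e-06).

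Regulators of the G1 phase went both ways. E2F7 and E2F8, repressors that act late in S phase, were higher by 2.28 and 1.77 (adjusted p = 1.03e-05 and 6.22e-05), and cyclin E2 (CCNE2) by 1.32 (adjusted p = 0.000211). CDK6, a partner of the D cyclins, averaged 93.0 ± 12.5 CPM in SUDHL6 and 244 ± 12.5 CPM in SUDHL4 (log2 difference -1.39, adjusted p = 8.47e-06). TFDP2, a dimerisation partner of E2F factors, averaged 27.1 ± 4.96 CPM in SUDHL6 and 134 ± 5.36 CPM in SUDHL4 (log2 difference -2.28, adjusted p = 1.85e-06). Among CDK inhibitors, CDKN2A was higher (0.56, adjusted p = 0.00658) and CDKN2D and CDKN1B lower (-1.25 and -0.52, adjusted p = 0.00012 and 0.00975). The call on CDKN1A (p21), -0.66 at an adjusted p of 0.0305, was lost with no filter and without any library except SUDHL6 replicate 3 (adjusted p = 0.0569 to 0.117).

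MYC had 349, 361 and 318 CPM in SUDHL6, against 404, 409 and 325 CPM in SUDHL4. The lines overlapped and the difference did not pass the test (log2 difference -0.14, SE 0.107, adjusted p = 0.271); it was called lower in SUDHL6 after median-of-ratios scaling (-0.26, adjusted p = 0.0462), by edgeR and DESeq2 and without SUDHL4 replicate 3 or both libraries of replicate 3. Of 22 MYC targets and ribosome biogenesis genes 15 were higher in SUDHL6 and 1 lower, against 40.5% and 31.2% of all genes. Their median was 0.43. By the 2-fold rule 4 (18.2%) were higher, against 13.7% of all genes. That count was 2 under scaling, edgeR or DESeq2 and without SUDHL6 replicate 2, SUDHL4 replicate 3 or both libraries of replicate 3. TERT, the catalytic subunit of telomerase, had 17.1, 32.1 and 36.2 CPM in SUDHL6, against 4.09, 3.20 and 3.25 CPM in SUDHL4 (log2 difference 2.65, adjusted p = 3.21e-05). MXI1, an antagonist of MYC, averaged 14.7 ± 2.93 CPM in SUDHL6 and 32.7 ± 5.75 CPM in SUDHL4, and ZBTB17 (MIZ1), through which MYC represses genes, 46.6 ± 4.31 CPM in SUDHL6 and 18.5 ± 0.331 CPM in SUDHL4 (log2 differences -1.11 and 1.28, adjusted p = 0.000486 and 7.57e-06).

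BCL2 had 241, 195 and 147 CPM in SUDHL6, against 304, 322 and 279 CPM in SUDHL4. It was lower in SUDHL6 without overlap (log2 difference -0.66, SE 0.163, adjusted p = 0.00639). MCL1, another protector from cell death, was higher, with 490.5 ± 38.7 CPM in SUDHL6 and 329 ± 8.68 CPM in SUDHL4 (log2 difference 0.57, adjusted p = 0.000325), and BCL2L1 did not pass the test (0.22, adjusted p = 0.243). BCL2A1, a protector induced by NF-kB, averaged 2.32 ± 2.17 CPM in SUDHL6 and 14.4 ± 1.84 CPM in SUDHL4 (log2 difference -2.39, adjusted p = 0.000515). The executioners BAX and BAK1 were higher (1.21 and 1.02, adjusted p = 6.85e-06 and 1.45e-05). Of the BH3-only proteins that trigger them, BMF was higher as given above, while BCL2L11 (BIM), PMAIP1 (NOXA) and BID were lower (-1.41, -2.08 and -1.90, adjusted p = 2.39e-05, 6.58e-05 and 0.0004). Of 15 tested family members 3 were at least 2-fold higher and 5 at least 2-fold lower, against 13.7% and 13.3% of all genes. Targets of p53 divided in a like way, with 5 of 22 at least 2-fold higher and 6 at least 2-fold lower. ZMAT3 and GADD45A averaged 33.01 and 3.97 CPM in SUDHL6 and 153 and 18.9 CPM in SUDHL4 (log2 differences -2.21 and -2.004, adjusted p = 8.68e-06 and 1.99e-06).

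Of the Polycomb genes at the centre of the series, EZH2 had 113, 126 and 149.8 CPM in SUDHL6, against 107, 103 and 107 CPM in SUDHL4. The lines did not overlap, but the margin was small: the log2 difference of 0.28 had an adjusted p of 0.038, and the call was lost in 10 of 15 alternatives, scaling, edgeR and DESeq2 among them (adjusted p = 0.0525 to 0.249). EED was higher (0.69, adjusted p = 0.000994) and SUZ12 did not pass the test (-0.07, adjusted p = 0.451). The accessory subunits of PRC2 differed more. PHF1 had 78.7, 85.6 and 56.4 CPM in SUDHL6, against 20.7, 21.9 and 28.003 CPM in SUDHL4. JARID2 averaged 31.4 ± 4.62 CPM in SUDHL6 and 11.1 ± 1.71 CPM in SUDHL4, and PHF19 100.4 ± 23.1 CPM in SUDHL6 and 44.3 ± 4.56 CPM in SUDHL4. All 3 were at least 2-fold higher in SUDHL6 (log2 differences 1.59, 1.42 and 1.14, adjusted p = 6.22e-05, 5.11e-05 and 0.000236); PHF1 and JARID2 lie on chromosome 6. Of the 11 PRC2 genes 7 were higher and 2 lower, against 40.5% and 31.2% of all genes, with a median of 0.49.

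CBX8 had 12.8, 16.3 and 12.6 CPM in SUDHL6, against 15.2, 14.1 and 12.5 CPM in SUDHL4, and its difference was -0.01 (SE 0.133, adjusted p = 0.956), so a small difference of either sign lies within its error. BCOR had 83.6, 79.3 and 64.7 CPM in SUDHL6, against 54.1, 62.98 and 52.4 CPM in SUDHL4. It was higher in SUDHL6 in all libraries, by 0.42 (SE 0.118, adjusted p = 0.0123). Within PRC1, RING1, a ubiquitin ligase subunit, averaged 88.1 ± 9.84 CPM in SUDHL6 and 28.2 ± 1.03 CPM in SUDHL4, and CBX2, a chromodomain subunit, 52.97 ± 5.46 CPM in SUDHL6 and 19.4 ± 2.10 CPM in SUDHL4 (log2 differences 1.60 and 1.41, adjusted p = 2.87e-06 and 1.36e-05). PCGF5 and PCGF2, which define separate PRC1 complexes, averaged 17.4 and 1.46 CPM in SUDHL6 and 104 and 9.48 CPM in SUDHL4 (log2 differences -2.52 and -2.10, adjusted p = 6.07e-07 and 6.28e-06). PHC2 and YAF2 were lower too (-1.51 and -1.36, adjusted p = 5.54e-06 and 8.3e-06). The list of 24 held 2 genes at least 2-fold higher and 4 at least 2-fold lower, against 13.7% and 13.3% of all genes. Its median of 0.01 turns to -0.10 under scaling.

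Among the corepressors that BCL6 can recruit, CTBP2 had 0.385, 1.17 and 1.18 CPM in SUDHL6, against 40.9, 40.9 and 42.0 CPM in SUDHL4. The SUDHL6 libraries held little of it (log2 difference -4.50, SE 0.183, adjusted p = 2.86e-07). GPS2, a subunit of the NCOR complex, was higher (1.30, adjusted p = 2.38e-06) and HDAC5, a class II deacetylase, lower (-1.61, adjusted p = 0.000417). Of 19 tested genes known as BCL6 targets 3 were at least 2-fold higher and 3 at least 2-fold lower. These shares (15.8% each) were close to the 13.7% and 13.3% of all genes. Of the 3 lower genes 1 was counted at a mean of at least 5 CPM. DNMT3A, a de novo DNA methyltransferase, averaged 18.7 ± 0.687 CPM in SUDHL6 and 6.19 ± 0.397 CPM in SUDHL4, and the cytidine deaminase APOBEC3F 13.5 ± 1.72 CPM in SUDHL6 and 2.70 ± 0.409 CPM in SUDHL4 (log2 differences 1.45 and 1.97, adjusted p = 6.36e-06 and 6.21e-06). Of 16 tested members of a list of HOX and other homeobox genes, which does not hold CUX2, 10 were lower in SUDHL6 and 4 higher; 7 (43.8%) were at least 2-fold lower and 0 at least 2-fold higher, the higher count being 1 by edgeR, by DESeq2 or with a pseudocount of 0.25. Among all genes 31.2% were called lower and 40.5% higher, and 13.3% and 13.7% at least 2-fold. The median of the homeobox list was -0.79. HOXC4 averaged 7.06 ± 0.993 CPM in SUDHL6 and 24.2 ± 1.62 CPM in SUDHL4 (log2 difference -1.65, adjusted p = 8.68e-06), HOXB4 differed by -1.45 and HOXB7 by -1.42 (adjusted p = 2.34e-05 and 0.000251), and 22 of the 39 members stayed under 1 CPM everywhere. SATB1, a chromatin organiser, had 12.9, 6.15 and 1.29 CPM in SUDHL6, against 22.1, 21.3 and 30.05 CPM in SUDHL4 (log2 difference -2.05, adjusted p = 0.00991; -1.34 without SUDHL6 replicate 3 and -2.64 without SUDHL6 replicate 1).

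Histone genes were higher in SUDHL6 for 8 of 14 tested (57.1%) by the 2-fold rule and lower for 1, with a median of 1.13. Over all genes the shares were 13.7% and 13.3%. HIST1H1C, a linker histone, had 10.4, 9.25 and 11.4 CPM in SUDHL6, against 0.438, 0.507 and 0.469 CPM in SUDHL4 (log2 difference 2.94, adjusted p = 2.64e-07). Of the 8, 6 lie in the cluster on chromosome 6, and H2AFX, the variant marked at DNA breaks, is outside it, with 51.4 ± 9.48 CPM in SUDHL6 and 17.3 ± 0.359 CPM in SUDHL4 (log2 difference 1.504, adjusted p = 2.03e-05). At a mean of at least 5 CPM 3 higher members were counted, and since histone genes resemble each other their counts are uncertain. Genes often mutated in germinal centre lymphoma, as a list of 44, had shares near those of all genes: 7 (15.9%) at least 2-fold higher and 6 (13.6%) lower. Of the 7, 5 lie on chromosome 6. TP63, a relative of p53, had 14.8, 16.3 and 6.32 CPM in SUDHL6, against 0.146, 0.127 and 0.134 CPM in SUDHL4 (log2 difference 3.47, adjusted p = 1.62e-05). NOTCH1, a receptor of cell fate, averaged 5.39 ± 0.880 CPM in SUDHL6 and 20.997 ± 1.80 CPM in SUDHL4 (log2 difference -1.79, adjusted p = 8.24e-06), and BTG1, which restrains proliferation, 87.4 ± 6.51 CPM in SUDHL6 and 368 ± 29.1 CPM in SUDHL4 (log2 difference -2.06, adjusted p = 4.07e-07).

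In metabolism, PHGDH stood at the head of a serine and one-carbon list with 3 of 15 members at least 2-fold higher and 0 at least 2-fold lower, the lower count being 2 by edgeR or DESeq2. AMT, of the glycine cleavage system, and MTHFD1, of folate metabolism, averaged 5.98 and 202 CPM in SUDHL6 and 0.696 and 87.2 CPM in SUDHL4 (log2 differences 2.04 and 1.18, adjusted p = 1.3e-06 and 0.000167). Genes of cholesterol and fatty acid synthesis were at least 2-fold lower for 7 of 31 (22.6%) and higher for 3. Over all genes these shares were 13.3% and 13.7%. FDFT1, squalene synthase, had 151, 165 and 169 CPM in SUDHL6, against 1021, 1055 and 1013 CPM in SUDHL4. INSIG1, the sterol sensor that retains SREBP, had 112, 130.0 and 127 CPM in SUDHL6, against 593, 591 and 630.5 CPM in SUDHL4. FADS2, a fatty acid desaturase, had 81.6, 156 and 203 CPM in SUDHL6, against 4.09, 4.37 and 4.19 CPM in SUDHL4. FDFT1 and INSIG1 were lower and FADS2 higher in all SUDHL6 libraries (log2 differences -2.66, -2.29 and 4.73, adjusted p = 4.94e-08, 1.43e-07 and 2.47e-06).

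Of 36 respiratory chain genes 19 were lower in SUDHL6 and 4 higher, against 31.2% and 40.5% of all genes, with a median of -0.24. NDUFB5 alone was at least 2-fold lower (-1.30, adjusted p = 4.91e-06) and none at least 2-fold higher. Of 79 ribosomal protein genes 47 were lower and 7 higher, against 31.2% and 40.5% of all genes, with a median of -0.43. By the 2-fold rule 13 (16.5%) were lower and 1 higher, against 13.3% and 13.7% of all genes. RPL35A had 569, 429 and 507 CPM in SUDHL6, against 2159.7, 2102 and 2163 CPM in SUDHL4. RPL31 averaged 391 ± 57.7 CPM in SUDHL6 and 1113 ± 25.9 CPM in SUDHL4. Both were lower in all SUDHL6 libraries (log2 differences -2.10 and -1.52, adjusted p = 1.42e-06 and 8.97e-06). Ribosomal proteins have many processed pseudogenes, so their counts depend on how shared reads were assigned. Of 16 genes of the NRF2 antioxidant response 3 were higher and 6 lower, the lower share being near the 31.2% of all genes; 4 were at least 2-fold lower, 7 by edgeR. TXN, thioredoxin, averaged 40.4 ± 14.2 CPM in SUDHL6 and 157 ± 8.86 CPM in SUDHL4, and GSR, glutathione reductase, 47.9 ± 0.792 CPM in SUDHL6 and 202 ± 6.82 CPM in SUDHL4 (log2 differences -1.99 and -2.06, adjusted p = 6.08e-05 and 1.05e-07).

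Calcium-binding and cytoskeletal genes included some of the wider gaps. S100A4 was at 0 in all SUDHL6 libraries and averaged 10.9 ± 1.22 CPM in SUDHL4, at least 223-fold lower in SUDHL6. S100A10, which binds annexin A2, had 20.03, 17.03 and 78.8 CPM in SUDHL6, against 1.42, 1.14 and 1.31 CPM in SUDHL4, with replicate 3 highest (log2 difference 3.77, 3.09 without it, adjusted p = 0.000186 and 9.69e-09). ANXA6, a membrane-binding annexin, averaged 103 ± 19.2 CPM in SUDHL6 and 791 ± 75.5 CPM in SUDHL4, and ANXA5 47.8 ± 3.70 CPM in SUDHL6 and 6.91 ± 0.667 CPM in SUDHL4 (log2 differences -2.94 and 2.63, adjusted p = 5.6e-07 and 3.34e-07). TUBB6, a beta tubulin, averaged 0.496 ± 0.429 CPM in SUDHL6 and 59.4 ± 5.90 CPM in SUDHL4 (log2 difference -5.38, adjusted p = 3.07e-07). Of 20 tested members of a list of S100, annexin, galectin and cytoskeletal genes, 6 were at least 2-fold higher and 8 (40.0%) at least 2-fold lower. Among all genes 13.7% were higher and 13.3% lower by this rule.

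Several stress genes were highest in SUDHL4 replicate 3. SLC7A11, the cystine importer, had 7.13, 9.10 and 10.7 CPM in SUDHL6, against 10.9, 10.7 and 86.5 CPM in SUDHL4. The difference did not pass the test (log2 difference -1.22, adjusted p = 0.145) and was -0.26 without that library; edgeR called it (adjusted p = 0.0353), as did the fit without both libraries of replicate 3 (-0.38, adjusted p = 0.0319). DNAJB4, a heat-induced cochaperone, had 6.20, 6.72 and 5.997 CPM in SUDHL6, against 11.8, 10.4 and 45.4 CPM in SUDHL4 (log2 difference -1.37, adjusted p = 0.0277; -0.72 without that library, adjusted p = 0.00294). Its call was lost with no filter and without SUDHL6 replicate 1 or 2 (adjusted p = 0.0519 to 0.0633). TRIB3, a pseudokinase induced by ATF4, had 6.36, 8.65 and 16.8 CPM in SUDHL6, against 45.3, 42.3 and 77.3 CPM in SUDHL4, so that even the 2 lower SUDHL4 libraries exceeded all of SUDHL6 (log2 difference -2.32, adjusted p = 0.000343). HSP90AB1, a constitutive chaperone on chromosome 6, had 2575, 2841 and 3577 CPM in SUDHL6, against 1106, 1135 and 1285 CPM in SUDHL4 (log2 difference 1.34, adjusted p = 5.42e-05). DUSP6, a phosphatase induced by ERK, averaged 0.2499 ± 0.0848 CPM in SUDHL6 and 9.11 ± 0.871 CPM in SUDHL4, and the AP-1 subunit JUNB 7.82 ± 2.98 CPM in SUDHL6 and 21.3 ± 2.32 CPM in SUDHL4 (log2 differences -3.02 and -1.38, adjusted p = 2.71e-07 and 0.000526).

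**Figure D4:**
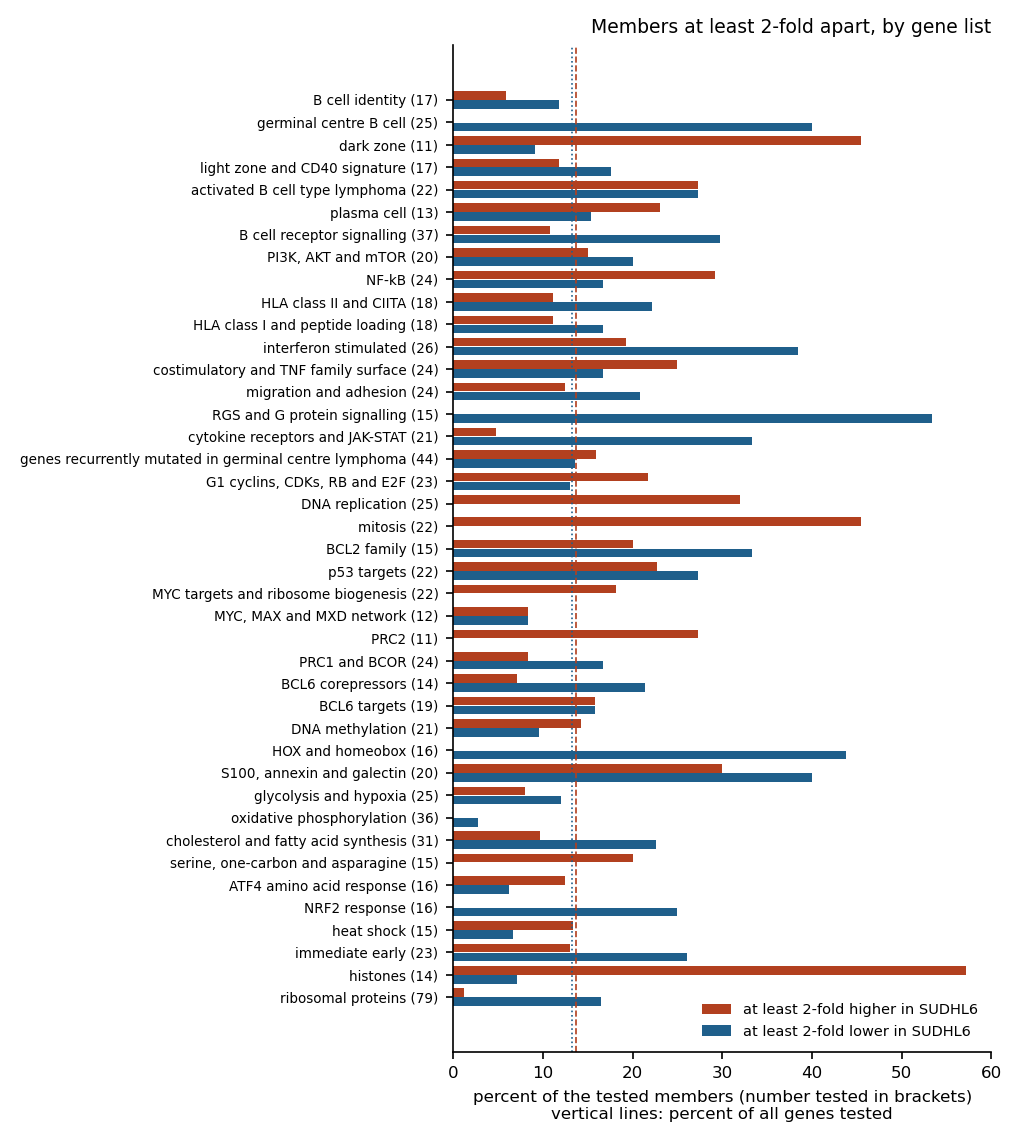
Percent of the tested members of each gene list with at least 10 tested that were at least 2-fold higher (red) or at least 2-fold lower (blue) in SUDHL6, with the number tested in brackets and vertical lines at the shares of all genes (13.7% dashed, 13.3% dotted). Histones, dark zone and mitosis genes reach furthest in red, and RGS and G protein, homeobox and germinal centre genes reach furthest in blue without a red bar.

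Many of the differences were shared by neighbouring genes. On chromosome 6, 39.0% of 603 tested genes were at least 2-fold higher in SUDHL6 and 7.13% at least 2-fold lower, with a median of 0.69, against 13.7%, 13.3% and 0.11 over all genes. On chromosome 8, 29.6% were at least 2-fold lower, on chromosome 13 27.9%, on chromosome 18 24.0%, on chromosome 4 22.7% and on chromosome 12 21.2%. Chromosome 19 had a median of 0.42. A running median over 25 neighbouring tested genes showed where along the chromosomes this lay. Runs of at least 30 genes that kept more than 0.7 above or below the median of all genes are given here as a description, with a rule chosen after the values were seen; gene order is that of RefSeq's GRCh38.p14, used for order only since the files are on hg19.

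The run of greatest size below lay on chromosome 8, from CLDN23 to BRF2. Of its 92 tested genes 69 (75.0%) were at least 2-fold lower in SUDHL6 and 4 at least 2-fold higher, with a median of -1.43. FDFT1, GSR, TNFRSF10B, ATP6V1B2 and BNIP3L, given in the lists above or members of them, lie in it. Chromosome 6 held 4 runs above: 32 genes from RPP40 to JARID2 (median 0.85), 133 from NUP153 to HCG23 (1.23), 46 from COL11A2 to KCTD20 (1.30) and 70 from USP49 to GCLC (1.31). In the 3 longer ones 66.9%, 65.2% and 68.6% of genes were at least 2-fold higher and 2, 0 and 1 genes at least 2-fold lower. The linker histone HIST1H1C and HLA-C lie in the second run, RING1, PHF1 and BAK1 in the third, and CCND3, POLH, HSP90AB1 and MCM3 in the fourth.

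Further runs below lay on chromosome 3 from NMD3 to DCUN1D1 (40 genes, median -0.84), on chromosome 4 from OCIAD1 to ANTXR2 and from AFF1 to TRAM1L1 (55 and 60 genes, -0.82 and -0.97), on chromosome 12 from DERA to FAM60A and from TMEM19 to ELK3 (32 and 42 genes, -0.88 and -0.98) and on chromosome 13 from NUFIP1 to INTS6 (33 genes, -0.75). ZMAT3, PIK3CA and NDUFB5 lie in the run on chromosome 3, STAP1, IGJ, NFKB1, RPL34 and ELOVL6 in those on chromosome 4, and DUSP6, DCN and BTG1 in the second run on chromosome 12. Single genes went against their run: E2F7, in the second run on chromosome 12, was higher in SUDHL6. Without both libraries of replicate 3 the medians of the runs ranged from -1.41 for that on chromosome 8 to 1.32 for that from NUP153 to HCG23.

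**Figure D5:**
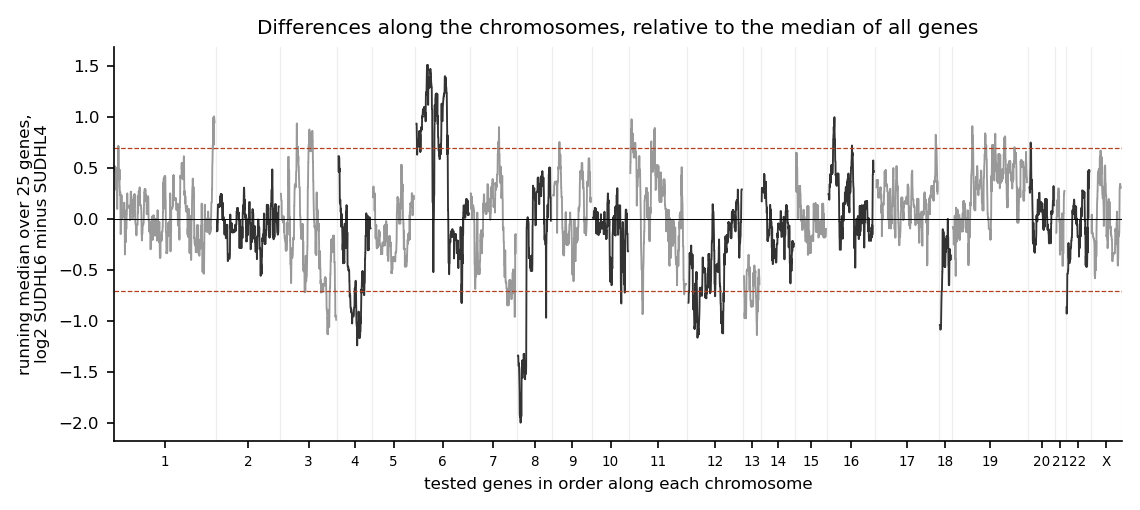
Running median over 25 neighbouring tested genes of the log2 difference SUDHL6 minus SUDHL4, relative to the median of all genes (vertical axis), against the order of the genes along chromosomes 1 to 22 and X (horizontal axis); dashed lines mark 0.7 and -0.7. The deep trough is at the start of chromosome 8 and the broad plateau, much of it above the upper line, is the first part of chromosome 6.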

How the data were processed

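The deposited values are CPM per gene symbol; counting with Rsubread appears in a label of 1 sample, and the submitters' processing notes name the aligner STAR and the build hg19. Libraries came from a TruSeq RNA kit, per the labels' protocols; no version or strand setting is given in the sources used here. Each deposited CPM column was a whole multiple of 1 read (100% of values within 0.01 reads), so whole reads were recovered for the alternatives. The listed genes made up 77.6 to 80.7% of the CPM divisor.

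Genes that reached 1 CPM in 3 or more of the 6 libraries were tested with limma 3.58.1 in R 4.3.3, with a variance trend, on log2(CPM + 1), with 4 residual degrees of freedom and no further scaling. Two-sided p-values were adjusted by Benjamini-Hochberg and called at 0.05. The pseudocount of 1 shrinks differences of weakly expressed genes. Fold bounds for genes with no read in a line use 3 reads over that line and cover counting error only. The steps were tested on simulated data.

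The members of the 50 gene lists (1105 genes, 1104 found, 6 by an older symbol), the lists and the rule for naming genes were chosen with earlier results of these data known. Named are BCL6, EZH2, CBX8, BCOR, BCL2 and MYC; the 15 called differences of greatest size in each direction, with a mean of 10 CPM or more in the higher line and without overlap; the 10 genes of highest mean detected in 1 line in each direction; up to 5 members per list and direction; and members of lists with at most 20 tested. Y-linked genes and unnamed loci were left out, and a few genes are not reported here. Chromosomes come from RefSeq's table (GRCh38.p14), by name, for 94.2% of symbols. Replicate numbers did not pair libraries across lines, so no block was used. Alternatives were a pseudocount of 0.25, other filters, median-of-ratios scaling, a replicate block, a fit with the Farage libraries, edgeR 4.0.16, DESeq2 1.42.0, and each library or both libraries of replicate 3 left out.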

Additional observations from a re-analysis of the deposited data

How the results depend on the processing

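The counts of genes called stayed within 1.5 times in all 15 alternatives. Genes higher in SUDHL6 numbered 4684, and 3873 (mean CPM of at least 5, 9517 genes tested) to 5303 (no filter, 17356 genes); genes lower numbered 3607, and 2921 to 4237 under the same filters. At least 2-fold, 1585 genes were higher (1184 to 1860) and 1536 lower (1118 to 1956). Leaving out 1 library gave 4211 to 5066 higher and 3183 to 3743 lower, 1541 to 1683 and 1506 to 1592 at least 2-fold, 90 to 102 genes detected in SUDHL6 only and 124 to 135 in SUDHL4 only. Of the genes called, edgeR called 7661 the same way. With the replicate block 4632 genes were higher and 3581 lower, 1584 and 1539 at least 2-fold; the labels give same-numbered libraries of the lines no shared origin, their deviations from the line means correlated across genes at -0.10, 0.13 and -0.07, and the block changed no call of a named gene. Of 201 named genes tested, 193 had a value in every alternative and 187 of these kept their call throughout; 8 lacked a value in some, mostly at a mean of at least 5 CPM. Calls were lost or gained for EZH2, MYC, LMO2, IGJ, CDKN1A, DNAJB4 and SLC7A11, and the cause was not tested. No named gene reversed. Of 100 list counts, 68 stayed within 1.5 times throughout. Depth limits SUDHL6 replicate 3 most.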

Other observations

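Genes in which SUDHL6 replicate 3 stood apart from its partners are given here as values, chosen after they were seen. Of the 123 genes at least 2-fold above both partners in that library on the log2(CPM + 1) scale, 36 were called higher in SUDHL6 than in SUDHL4, 46 lower and 41 neither; of the 121 below, 25 were called higher, 32 lower and 64 neither. SIRPA, a receptor that binds CD47, had 1.93, 2.42 and 45.1 CPM in SUDHL6 replicates 1 to 3, against 0.0365, 0.0633 and 0.067 CPM in SUDHL4. ATP2B4, a calcium pump of the plasma membrane, had 2.81, 2.23 and 45.2 CPM in SUDHL6, against 0.839, 0.792 and 0.502 CPM in SUDHL4. For TNF, a cytokine, the values were 10.0, 15.4 and 62.3 CPM in SUDHL6, against 22.7, 22.9 and 19.7 CPM in SUDHL4. The ribosomal protein gene RPL7, which has many pseudogene copies, had 4.04, 3.78 and 119 CPM in SUDHL6, against 1.79, 1.99 and 1.78 CPM in SUDHL4. Below its partners lay BACH2, a repressor of plasma cell fate, with 211, 130.7 and 14.4 CPM in SUDHL6, against 146, 159.8 and 152 CPM in SUDHL4. IL4R, the IL-4 receptor, had 225, 323 and 31.4 CPM in SUDHL6, against 227, 235 and 188 CPM in SUDHL4. MEF2B, a cofactor of BCL6, had 7.01, 10.6 and 1.39 CPM in SUDHL6, against 9.71, 8.68 and 8.21 CPM in SUDHL4.

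In SUDHL4 replicate 3, DDIT3, a transcription factor of the stress response, had 66.3 CPM, against 16.9 and 16.2 CPM in the other SUDHL4 libraries and 8.67 to 16.5 CPM in SUDHL6. SQSTM1, an autophagy receptor, had 277 CPM there, against 75.9 and 80.0 CPM in its partners and 68.0 to 96.8 CPM in SUDHL6. PPP1R15A, which restores translation after stress, had 94.0 CPM there, against 18.2 and 17.7 CPM in its partners and 37.5 to 48.4 CPM in SUDHL6. Of the 34 genes above both partners in that library 5 were called higher in SUDHL6, 6 lower and 23 neither.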
